A study of Mus musculus with 34 samples.

Results

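The response of wild-type mouse macrophages to 45 min of lipopolysaccharide (LPS) was read on Affymetrix MG-U74Av2 arrays, by setting 2 arrays of LPS-treated cells against 4 arrays of resting cells. These 6 arrays were chosen by their titles, from 34 in the series. The cells were bone-marrow-derived macrophages, which are grown out of marrow precursors with the growth factor CSF-1; they were cultured for 7 days and rested for 1 hr. The stimulated cells were wild type and received LPS at 100 ng/ml for 45 min with no added cytokine. The resting cells received no LPS, and their labels state no genotype. The labels also name the growth factor source differently, mCSF for the LPS-treated cells and L-cell conditioned medium for the resting cells, so the medium and the LPS cannot be told apart by this design. The 2 wild-type arrays at 180 min of LPS, under the same growth conditions as the 45 min arrays, gave a later time for comparison. The titles call the arrays biological replicates without saying how many mice or cultures stood behind them, so each p-value reflects array-to-array spread, which may be technical.

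LPS, a component of the outer membrane of Gram-negative bacteria, is recognised on macrophages by TLR4 with its partners MD-2 and CD14. The receptor signals through the adaptor MyD88 to the NF-kappaB and MAP kinase pathways, and through the adaptor TRIF to IRF3 and type I interferon. Primary response genes are transcribed without new protein synthesis and appear within the first hour, while secondary response genes need newly made proteins such as interferon-beta and appear later.

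Values are given as signal, the linear intensity of a probe set, on arrays that the authors had scaled to a common trimmed mean. Changes are on the scale of log2(signal + 50) with their standard error, which understates the change of genes with low signal; folds are taken on the same scale. A call means an adjusted p under 0.05 in a limma fit, adjusted by Benjamini-Hochberg over 8224 probe sets, and each of the 6070 genes tested is given by its brightest probe set.

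Markers of macrophages were bright in both groups. Csf1r, the receptor for CSF-1, gave 28075 and 25509 in LPS-treated cells, against 33289, 27961, 27065 and 26460 in resting cells, a change of -0.09 ± 0.14 that did not pass (adjusted p = 0.70). Over the mean of its 2 probe sets the change was -0.41. In 14 of the 15 other grouped arrays at 45 min of LPS, described below, Csf1r lay below every resting array. The summed signal of 18 macrophage markers was 299426.9 and 266126.3 after LPS and ran from 273228.7 to 339296.6 at rest. The summed signal of 21 stromal markers (collagens and other fibroblast genes) was 20381 and 21165.7 after LPS, against 5676, 2955.2, 2747.9 and 7182.6 at rest. The ratio of the actin 3' probe set to its 5' probe set, a sign of RNA integrity, was 2.41 and 1.39 in the LPS arrays and 1.15 to 1.25 in the resting arrays. The same ratio for Gapdh was 0.882 and 0.735 in the LPS arrays and 0.867 to 0.97 in the resting arrays. The part of these differences in the gene changes was not tested. Resting replicate 4 correlated with the other resting arrays at 0.863 to 0.885, against 0.911 to 0.93 among those 3 arrays, and counts without it are given where they moved by over 1.5 times.

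After 45 min of LPS, chemokine and cytokine genes showed the largest rises, and the feedback inhibitors of the same pathways rose beside them. Immediate early transcription factor genes rose too. Of the gene lists, stromal markers had the highest share called higher, 18 of 21, between groups whose labels also name different growth factor sources. The falls were smaller and fewer past 4-fold. They included the chemokine receptor gene Ccr2 and Ly86, which encodes the partner of a receptor. They also included genes of antigen processing and the mitochondrial respiratory chain. Of 6070 genes, 562 (9.26%) were called higher and 509 (8.39%) lower. The 2 LPS arrays lay above all 4 resting arrays for 1019 genes (16.8%) and below them for 973 (16%). Among called genes, 341 rose and 199 fell by 2-fold or more, 99 and 15 by 4-fold or more, and 36 and 1 by 8-fold or more. The median of the called rises was 1.15 and of the called falls -0.88, beside 0.02 over all genes. By probe set, 1377 were called, with 718 left without LPS replicate 1, 695 without LPS replicate 2 and 329 in a fit of these 6 arrays alone, which takes the spread from them and not from all 32 grouped arrays.

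**Figure D1:**
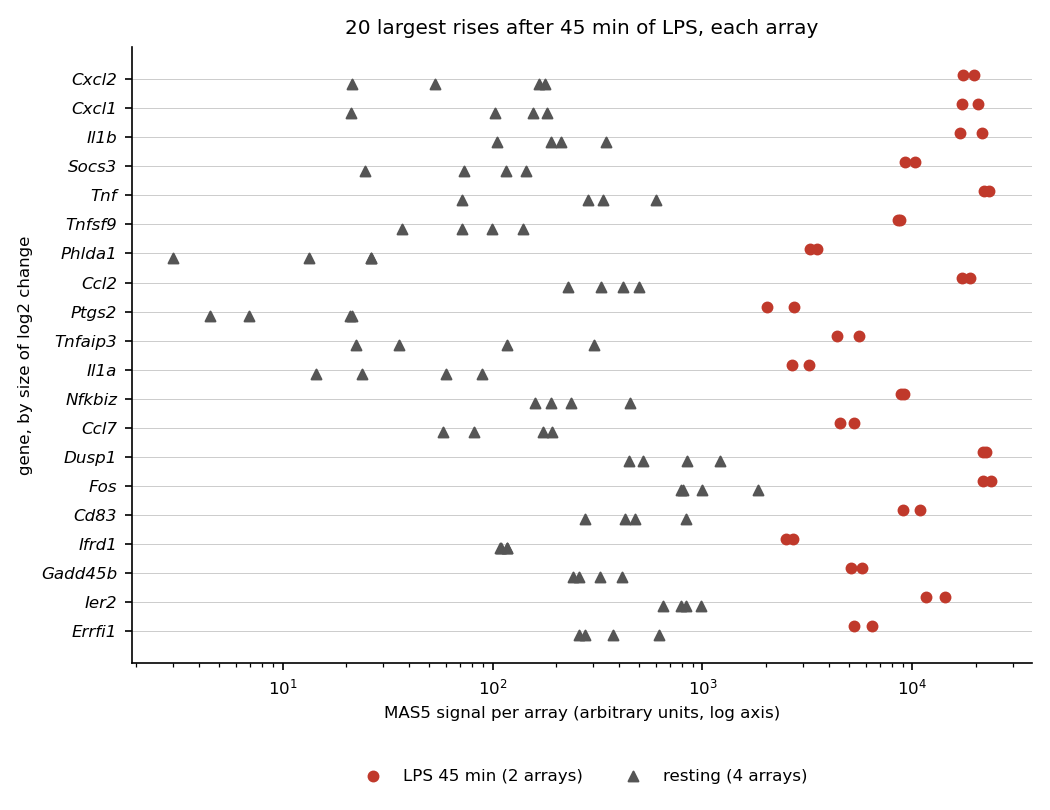
Signal (log axis) of the 20 genes with the largest called rises, ordered by log2 change; circles are the 2 LPS 45 min arrays and triangles the 4 resting arrays. The genes were chosen among those with both LPS arrays above all 4 resting arrays. The uppermost gene, Cxcl2, has LPS signals of 17345 and 19596.

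The largest rises were those of secreted mediators. Cxcl2, a chemokine that draws neutrophils, gave 17345 and 19596 in LPS-treated cells, against 176.9, 167.2, 53.5 and 21.5 in resting cells. Cxcl1, the neighbouring neutrophil chemokine, gave 17267 and 20509 after LPS, against 182.4, 21.3, 103.1 and 155.2 at rest. For both genes each LPS array was far above every resting array. The log2 change was 7.06 ± 0.28 for Cxcl2 (134-fold, adjusted p = 1.6e-15 by limma) and 6.96 ± 0.27 for Cxcl1 (125-fold, adjusted p = 6.22e-16). The fold depends on the constant added to these low resting signals: for Cxcl2 it was 204.5-fold with 10 added and 62.8-fold with 200 added. The monocyte chemokines rose beside them. Ccl2 gave 17182 and 18757 in LPS-treated cells, against 500.9, 227.8, 419.4 and 329.7 in resting cells (5.47 ± 0.18). Ccl7 gave 5289.2 and 4497 after LPS, against 174, 58.3, 81.2 and 192.3 at rest (4.89 ± 0.26). Of 21 chemokines tested, 10 rose, 0 fell and 11 had no call, with a list median of 0.85; 2 fell without resting replicate 4. Cxcl12, a chemokine made mainly by stromal cells, was among the 10 (721.2 and 738.6 after LPS, 33.1 to 137.1 at rest) and is described below with the stromal markers.

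Among cytokines, Il1b, encoding IL-1-beta, gave 21381 and 16816 in LPS-treated cells, against 210.8, 105.5, 189.2 and 348 in resting cells (6.25 ± 0.22, adjusted p = 1.01e-16). Tnf, encoding tumour necrosis factor, gave 21922 and 23219 after LPS, against 597.9, 71.5, 336.4 and 286.3 at rest (6.15 ± 0.34, adjusted p = 8.2e-13). The resting arrays differed more among themselves for Tnf than for Il1b, yet the highest of them was far below both LPS arrays. Tnfsf9, the ligand of the costimulatory receptor 4-1BB, gave 8533.1 and 8699.6 after LPS and 37.1 to 140.1 at rest (6.04 ± 0.21). Il1a, encoding IL-1-alpha, gave 2674.1 and 3222.9 after LPS and 14.4 to 89.2 at rest (5.01 ± 0.24). Il10, the anti-inflammatory cytokine, was also called at this early time, with 2412.5 and 2633.8 in LPS-treated cells, against 207.6, 261.5, 604.7 and 311.9 in resting cells (2.79 ± 0.22, adjusted p = 1.37e-09). Csf1, the gene of the growth factor on which these cells depend, rose by 2.76 ± 0.25. Of 22 cytokine and growth factor genes tested, 13 rose, 2 fell and 7 had no call (list median 1.27); without either LPS array 0 fell, and the 6-array fit left 8 rises.

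Other cytokine and effector genes of LPS-treated macrophages were near or below the threshold at 45 min. Il6 gave 209 and 222.5 in LPS-treated cells, against 12.2, 19.2, 4 and 223.8 in resting cells, so resting replicate 4 overlapped the LPS arrays. Its change of 1.57 ± 0.46 passed (adjusted p = 0.0209), but the call was lost without LPS replicate 1 (adjusted p = 0.106), LPS replicate 2 (0.124) or resting replicate 3 (0.056), in the 6-array fit (0.216) and with 200 added (0.123). Il12b, the p40 subunit of IL-12, gave 221.1 and 43.6 after LPS and 17.1 to 94.4 at rest, and did not pass (0.83 ± 0.40, adjusted p = 0.157). Nos2, inducible nitric oxide synthase, gave 83.2 and 179.1 after LPS and 22.7 to 119.2 at rest, and did not pass (0.73 ± 0.34, adjusted p = 0.142). At 180 min of LPS these genes gave 4567.8 and 2644.8 (Il6), 1529.4 and 1416 (Il12b), and 350.8 and 577.5 (Nos2).

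The 250 bases upstream of the annotated start are shown for genes that carry the response above and for Nfkbia and Fos, described below, beside the share of promoters with each motif among genes that rose and genes that fell. Sequences and coordinates are from RefSeq on build GRCm38.p6, written 5′ to 3′ on the strand of the gene, with matches in capitals. Motifs were searched on both strands: the kappaB consensus, the CArG box (bound by SRF), TGACGTCA (bound by CREB and ATF factors), TGANTCA (bound by AP-1) and TATAAA. The windows were chr5:90903649-90903898 on the plus strand for Cxcl2, chr5:90890995-90891244 on the plus strand for Cxcl1, chr2:129371140-129371389 on the minus strand for Il1b, chr11:117969367-117969616 on the minus strand for Socs3, chr17:35202008-35202257 on the minus strand for Tnf, chr12:55492648-55492897 on the minus strand for Nfkbia and chr12:85473640-85473889 on the plus strand for Fos.
Cxcl2: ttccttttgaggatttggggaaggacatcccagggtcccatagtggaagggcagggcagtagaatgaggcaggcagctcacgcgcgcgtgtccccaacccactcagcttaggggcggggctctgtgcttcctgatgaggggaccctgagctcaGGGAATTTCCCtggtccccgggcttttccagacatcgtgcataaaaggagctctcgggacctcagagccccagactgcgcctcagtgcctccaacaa
Cxcl1: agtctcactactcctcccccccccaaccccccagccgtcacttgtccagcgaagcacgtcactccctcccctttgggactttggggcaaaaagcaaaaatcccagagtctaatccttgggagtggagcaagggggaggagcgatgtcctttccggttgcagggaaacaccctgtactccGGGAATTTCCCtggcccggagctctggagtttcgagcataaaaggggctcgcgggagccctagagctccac
Il1b: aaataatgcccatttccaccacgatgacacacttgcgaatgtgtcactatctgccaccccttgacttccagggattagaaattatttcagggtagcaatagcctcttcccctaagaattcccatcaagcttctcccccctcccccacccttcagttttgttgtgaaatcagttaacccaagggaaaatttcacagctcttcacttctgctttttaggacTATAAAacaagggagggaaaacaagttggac
Socs3: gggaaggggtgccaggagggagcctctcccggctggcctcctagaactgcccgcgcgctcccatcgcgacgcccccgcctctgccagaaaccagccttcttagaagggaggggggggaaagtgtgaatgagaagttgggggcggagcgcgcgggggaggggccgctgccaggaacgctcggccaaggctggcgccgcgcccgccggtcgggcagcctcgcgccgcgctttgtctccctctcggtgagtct
Tnf: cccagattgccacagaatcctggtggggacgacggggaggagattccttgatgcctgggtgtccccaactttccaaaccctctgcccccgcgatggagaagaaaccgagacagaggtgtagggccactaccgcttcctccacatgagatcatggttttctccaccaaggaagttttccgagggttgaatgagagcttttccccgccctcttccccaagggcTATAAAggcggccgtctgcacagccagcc
Nfkbia: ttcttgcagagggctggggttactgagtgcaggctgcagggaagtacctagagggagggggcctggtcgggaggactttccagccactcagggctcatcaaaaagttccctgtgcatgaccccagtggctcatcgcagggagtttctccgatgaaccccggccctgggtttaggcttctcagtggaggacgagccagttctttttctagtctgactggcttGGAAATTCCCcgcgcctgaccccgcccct
Fos: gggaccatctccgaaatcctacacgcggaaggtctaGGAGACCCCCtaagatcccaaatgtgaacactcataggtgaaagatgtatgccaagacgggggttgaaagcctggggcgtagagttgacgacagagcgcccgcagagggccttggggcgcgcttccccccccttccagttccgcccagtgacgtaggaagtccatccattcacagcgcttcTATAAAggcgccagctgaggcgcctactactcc

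The same kappaB-type letters stood in the Cxcl2 and Cxcl1 windows as 2 overlapping matches, beginning 97 and 96 bases before the start of Cxcl2 and 71 and 70 bases before that of Cxcl1. Nfkbia held a kappaB match 29 bases before its start, and Fos held one 214 bases before it. TATAAA stood 31 bases before the start of Il1b, 29 before that of Tnf and 33 before that of Fos, and Socs3 held none of the 5 motifs in this window. A kappaB match was found in 16.6% of 439 genes called higher with a window, 11.6% of 423 called lower and 10.9% of 4887 tested; over all 32851 windows of this length it was 7.25%. Among the 75 genes that rose by 4-fold or more it was 21.3%. The CArG box stood in 3.19% of genes called higher, 0.946% of genes called lower and 1.62% of genes tested. TGANTCA was more even, in 8.43%, 9.22% and 6.61% of the same sets (6.75% of all windows), and TGACGTCA stood in 2.73%, 3.55% and 2.86% (1.55% of all windows). TATAAA stood in 13.4%, 10.4% and 9.66% (12.4% of all windows), and the CArG box in 1.47% of all windows. These shares are descriptions with no test, and a match is not a measured binding site. Of the 20 largest rises 13 had a window, and 4 of these held the kappaB consensus (Cxcl1, Cxcl2, Fos and Tnfaip3). TATAAA stood in 7 of the 13, TGACGTCA in 2, TGANTCA in 2 and the CArG box in 0. Among the 75 genes that rose by 4-fold or more, TATAAA stood in 18.7%, TGANTCA in 9.33%, TGACGTCA in 6.67% and the CArG box in 5.33%.

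Inhibitors of the pathway rose with the mediators. Socs3, which restrains cytokine receptor signalling, gave 9200.2 and 10318 in LPS-treated cells, against 144, 73.5, 116.2 and 24.6 in resting cells (6.22 ± 0.23, adjusted p = 4.75e-16). Tnfaip3, encoding the ubiquitin-editing enzyme A20, gave 5554.3 and 4361 after LPS, against 303.8, 22.4, 117.4 and 35.9 at rest (5.17 ± 0.53). Nfkbia, encoding I-kappaB-alpha, gave 23769 and 23933 after LPS, against 4057.6, 1394.9, 2706.3 and 1708.7 at rest (3.37 ± 0.25, adjusted p = 2.84e-10). For each of these genes both LPS arrays lay above all 4 resting arrays. Nfkbiz, encoding the nuclear protein I-kappaB-zeta, rose by 4.95 ± 0.21 on its brightest probe set and by 3.0 over the mean of its 2 probe sets. Of 9 genes of NF-kappaB subunits and I-kappaB proteins, 3 rose and 0 fell; the third, the subunit gene Relb, changed by 0.78 ± 0.19, a call lost without LPS replicate 2 (adjusted p = 0.107) and in the 6-array fit (0.10).

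Genes of mRNA decay and of signal termination followed. Zfp36, whose product tristetraprolin destabilises Tnf mRNA, gave 18155 and 22256 in LPS-treated cells, against 3448.7, 1676.5, 3715.3 and 1091.3 in resting cells (3.16 ± 0.33). Its relative Zfp36l1 rose by 2.44 ± 0.22 and the antiproliferative gene Btg2 by 2.04 ± 0.18. Of 16 brakes on NF-kappaB and mRNA stability, 9 rose and 0 fell (list median 0.90); the 6-array fit left 6. Dusp1, a phosphatase that inactivates p38 and JNK, gave 21756 and 22306 after LPS, against 1213.4, 519.3, 844.6 and 447.4 at rest (4.88 ± 0.23, adjusted p = 3.9e-14). Dusp2, a phosphatase of the same family, rose by 2.60 ± 0.19, Errfi1, an inhibitor of the EGF receptor, by 3.84 ± 0.20, and Spred2, an inhibitor of Ras-ERK signalling, by 2.04 ± 0.28. Of 16 genes of the MAP kinase pathway and its phosphatases 7 rose and 1 fell; 4 rose without LPS replicate 1, without LPS replicate 2 or in the 6-array fit. These 4 genes, Dusp1, Errfi1, Dusp2 and Spred2, kept their calls in every setting tried.

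Of 16 genes for receptors and adaptors of the LPS pathway, 2 rose, 2 fell and 12 had no call (list median 0.13), shares of 12.5% each way beside 9.26% and 8.39% over all genes; the 6-array fit left 1 rise and 1 fall. Cd14, encoding the LPS co-receptor, gave 40623 and 33174 in LPS-treated cells, against 17749, 23854, 23453 and 21046 in resting cells, a rise of 0.78 ± 0.16 (adjusted p = 0.00106) that the 6-array fit did not call (0.0995). Ly86, encoding MD-1, the partner of the TLR4-like receptor RP105, gave 862.9 and 1077.7 after LPS, against 5996.9, 4365.1, 7397.8 and 3405.1 at rest (-2.34 ± 0.21, adjusted p = 1.43e-08). Its lowest resting array was above both LPS arrays. Tank, an adaptor of the TRAF proteins, rose by 1.76 ± 0.25. Tlr6, which pairs with TLR2, fell by 0.84 ± 0.26 (adjusted p = 0.0261), a call lost without LPS replicate 1, LPS replicate 2 and in other settings (highest adjusted p = 0.246). Tlr4 was not analysed here.

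Immediate early transcription factor genes rose in LPS-treated cells. Fos, a subunit of AP-1, gave 21779 and 23697 in LPS-treated cells, against 810.4, 793.4, 1843.5 and 999.3 in resting cells (4.38 ± 0.22, adjusted p = 1.01e-13). Egr1, a zinc finger factor, gave 5924 and 5598.8 after LPS, against 414.9, 491.9, 260.1 and 600.8 at rest (3.61 ± 0.29). Nr4a1, an orphan nuclear receptor, gave 4414.2 and 4316.2 after LPS, against 365.3, 216.5, 196.8 and 337.5 at rest (3.78 ± 0.23). The 2 LPS arrays were close together for all 3 genes. Egr2 rose by 3.07 ± 0.19, Ier2 by 3.91 ± 0.14, and the survival gene Ier3 by 3.65 ± 0.31. Vcl, encoding the adhesion protein vinculin and regulated by SRF, rose by 2.36 ± 0.19 (1.65 over the mean of its 2 probe sets). Of 16 Egr, Nr4a, Klf and SRF-linked genes, 11 rose and 0 fell, with a list median of 1.24. Of 16 AP-1 and ATF genes, 7 rose and 0 fell (list median 0.78), among them Junb by 2.51 ± 0.18, Jun by 1.91 ± 0.33 and Fosb by 1.67 ± 0.28; the 6-array fit left 4. Atf3, a repressor of inflammatory genes, gave 5311.2 and 4730.5 after LPS, against 5029.5, 1610, 5305.8 and 865.2 at rest. Its resting arrays spread across the LPS values, and the change did not pass (1.00 ± 0.41, adjusted p = 0.0994).

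Genes of growth arrest and early kinases rose as well, 12 of 21 with 0 lower and a list median of 1.28. Phlda1, encoding a pleckstrin-homology-like protein, gave 3262.5 and 3506.4 in LPS-treated cells, against 26.5, 13.4, 3 and 26.3 in resting cells (5.69 ± 0.16, adjusted p = 8.16e-18). Its fold of 51.6 became 134.6 with 10 added and 16.5 with 200 added. Sgk1, a serum- and glucocorticoid-regulated kinase, gave 10288 and 10643 after LPS, against 1068.2, 1258.4, 1184.8 and 1171.5 at rest (3.11 ± 0.16). Myc, a growth-promoting transcription factor, gave 468.9 and 447.8 after LPS and 6.3 to 22.9 at rest (3.03 ± 0.26). Growth-arrest genes rose on the same arrays: Gadd45b by 3.95 ± 0.23 and Cdkn1a, encoding the cell cycle inhibitor p21, by 2.87 ± 0.34. Over the means of their probe sets these changes were 3.22 and 1.93. Id2, an inhibitor of basic helix-loop-helix factors, rose by 2.61 ± 0.30. Irf1, an interferon regulatory factor, gave 6591.1 and 5363 in LPS-treated cells, against 1355, 803.1, 1428.8 and 977.5 in resting cells (2.37 ± 0.18, adjusted p = 3.16e-10).

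At the cell surface, Cd83, an activation marker of antigen-presenting cells, gave 10824 and 9029.2 in LPS-treated cells, against 836.8, 274.4, 428.2 and 477 in resting cells (4.26 ± 0.24). Its change over the mean of 2 probe sets was 3.22. Icam1, the adhesion ligand of leukocyte integrins, gave 4905 and 5641.8 after LPS, against 592.7, 563.7, 582.8 and 865.6 at rest (2.94 ± 0.18). The urokinase receptor gene Plaur rose by 1.89 ± 0.16 and the costimulatory ligand gene Cd86 by 1.87 ± 0.29, or 1.23 over 2 probe sets. Clec4e, encoding the C-type lectin Mincle, rose by 2.40 ± 0.22. Selplg, the P-selectin ligand, gave 2026 and 2123.2 after LPS, against 4621, 4552.6, 7777.2 and 3623.7 at rest (-1.23 ± 0.19). Of 26 adhesion and costimulation genes 8 rose and 3 fell, and 4 rose and 1 fell without LPS replicate 1, without LPS replicate 2 and in the 6-array fit. Ptgs2, encoding the prostaglandin-forming enzyme cyclooxygenase-2, gave 2038.3 and 2721.6 after LPS, against 4.5, 6.9, 21.4 and 20.9 at rest. Its rise of 5.26 ± 0.18 was 107.1-fold with 10 added and 12-fold with 200 added.

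**Figure D2:**
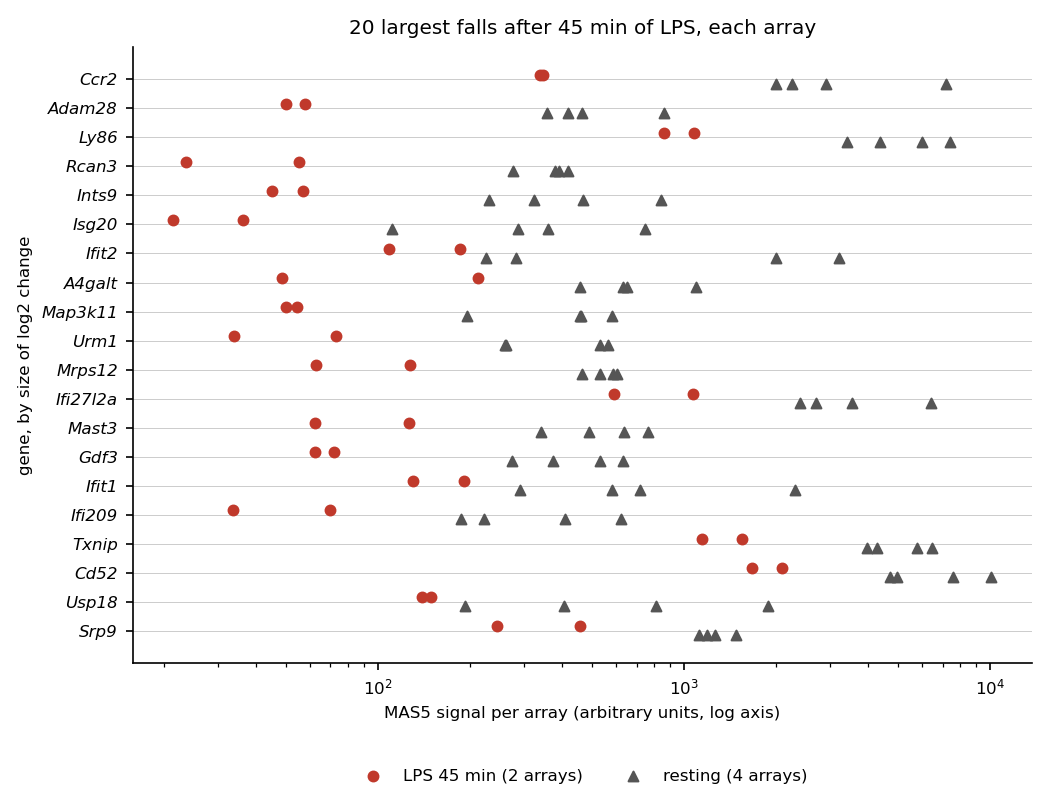
Signal (log axis) of the 20 genes with the largest called falls, ordered by log2 change; circles are the 2 LPS 45 min arrays and triangles the 4 resting arrays. The genes were chosen among those with both LPS arrays below all 4 resting arrays. Ccr2 has LPS signals of 346.3 and 338.1, below resting signals of 1990.3 to 7149.6.

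The largest fall was that of Ccr2, the receptor for the chemokine CCL2. It gave 346.3 and 338.1 in LPS-treated cells, against 1990.3, 2904.8, 7149.6 and 2259.1 in resting cells (-3.01 ± 0.38, 8.07-fold lower, adjusted p = 3.78e-06). Thus Ccr2 fell while its ligand gene Ccl2 rose on the same arrays. C3ar1, the receptor for complement fragment C3a, gave 5212.6 and 5493.4 after LPS, against 11093, 15038, 10722 and 15528 at rest (-1.26 ± 0.17). Ccrl2, an atypical chemoattractant receptor, rose by 2.12 ± 0.26. Cxcr4, the receptor for CXCL12, gave 3335.1 and 3190.9 after LPS, against 3204.8, 2606.8, 2061.7 and 2618 at rest, and did not pass (0.33 ± 0.28, adjusted p = 0.463). Of 14 chemokine and chemoattractant receptors tested, 1 rose (Ccrl2) and 2 fell (Ccr2 and C3ar1). These shares of 7.14% and 14.3% stood beside 9.26% and 8.39% over all genes.

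Among the other large falls, Cd52, a small surface glycoprotein of leukocytes, gave 2085.9 and 1662.4 in LPS-treated cells, against 7580.4, 4957.4, 10074 and 4700 in resting cells (-1.78 ± 0.24). Txnip, a thioredoxin-binding protein that limits glucose uptake, gave 1147 and 1546.4 after LPS, against 3967.8, 5776.6, 6476 and 4280 at rest (-1.88 ± 0.19). The mean over its 2 probe sets was -0.68. Adam28, a membrane metalloprotease, gave 50 and 57.6 after LPS, against 862.4, 464.3, 417.3 and 356.1 at rest (-2.40 ± 0.42). For such dim genes the fold depended on the constant: Adam28 was 5.27-fold lower with 50 added, 7.92-fold with 10 and 2.76-fold with 200. Rcan3, a calcineurin regulator, and Mast3, a kinase, were also dim after LPS, with 55.3 and 23.7, and 62.4 and 126.2, against lowest resting signals of 276.2 and 341. Of the 20 largest falls, 15 kept their calls in every setting and 5 lost theirs in at least 1.

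Those 5 were Isg20, Ifit2, Ifit1, Ifi209 and Usp18, each known as interferon-inducible. In the 6-array fit the adjusted p was 0.0539 for Isg20, 0.201 for Ifit2 and 0.0506 for Ifi209, and without LPS replicate 1 it was 0.0503 for Isg20 and 0.159 for Ifit2. Of 24 antiviral interferon genes tested, 12 fell, 1 rose and 11 had no call, with a list median of -0.89. Ifit1, whose product binds viral RNA, gave 191.3 and 130 in LPS-treated cells, against 716.9, 584, 2299.5 and 291.6 in resting cells (-1.92 ± 0.48, adjusted p = 0.00763). Usp18, which removes ISG15 from proteins and restrains interferon signalling, gave 148.8 and 139.5 after LPS, against 809.2, 404.1, 1880.5 and 192.2 at rest (-1.75 ± 0.47, adjusted p = 0.0116). Resting replicate 3 was the highest and resting replicate 4 the lowest for both genes, so the resting arrays spread widely. The summed signal of the list showed the same order, with 25890.8 and 22492.5 after LPS and 40976.4, 33622.3, 64808.6 and 24650.9 at rest, where resting replicate 4 lay between the LPS arrays. The count of falls was 17 without resting replicate 4, 3 without LPS replicate 1, 6 without LPS replicate 2 and 0 in the 6-array fit. Ifit1 lost its call without LPS replicate 2 (adjusted p = 0.098) and in the 6-array fit (0.105). Usp18 lost its call without LPS replicate 1 (0.0731), without LPS replicate 2 (0.0887) and in the 6-array fit (0.171). Mx1, an antiviral GTPase, gave 141.2 and 177.3 after LPS, against 576.7, 301.9, 1174 and 112.7 at rest, and did not pass (-1.13 ± 0.45, adjusted p = 0.0838). The exception was Ifi202b, a DNA-binding interferon-inducible gene, with 594.5 and 459.5 after LPS and 4.9 to 14.5 at rest (3.23 ± 0.26). Its signal ran from 2.8 to 1232.8 in the 15 other grouped arrays at 45 min of LPS, described below. Of these, 12 lay above every resting array and 3 below every one, a split whose cause was not tested.

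Genes of intracellular defence and antigen processing also fell. Irgm1, an immunity-related GTPase that acts against intracellular bacteria, gave 192.4 and 110.8 in LPS-treated cells, against 582.2, 398.1, 676.1 and 495.5 in resting cells (-1.55 ± 0.30, adjusted p = 0.000737). Psmb9, a catalytic subunit of the immunoproteasome, gave 397.5 and 587.7 after LPS, against 2423, 1837.9, 1877.2 and 1049.6 at rest (-1.73 ± 0.24, adjusted p = 1.61e-05). Psme1, a proteasome activator subunit, gave 1139.4 and 1314.2 after LPS, against 2669.5, 3099.9, 4604.8 and 2937.2 at rest (-1.37 ± 0.19). For Irgm1, Psmb9 and Psme1 every resting array lay above both LPS arrays, and the 3 genes kept their calls in every setting tried. Of 8 interferon-induced GTPases 3 fell and 0 rose; 2 fell without either LPS array or resting replicate 3 and 1 in the 6-array fit. Of 14 genes of MHC class I and the immunoproteasome 7 fell and 0 rose (list median -0.27); 4 fell without LPS replicate 1 or LPS replicate 2 and 2 in the 6-array fit. Of 12 MHC class II presentation genes 2 fell in every one of these fits: H2-DMa, which loads peptides, by 1.27 ± 0.25, and the lysosomal thiol reductase gene Ifi30 by 1.58 ± 0.28. Over the mean of its 2 probe sets H2-DMa changed by -0.87. Stat5b, a signal transducer of cytokine receptors, gave 27.1 and 30.2 after LPS, against 247, 171.9, 284.6 and 151.1 at rest (-1.71 ± 0.38).

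Genes of the mitochondrial respiratory chain were lower. Of 45 tested, 19 fell and 0 rose, with a list median of -0.51. Ndufs3, a subunit of complex I, gave 1052 and 997.3 in LPS-treated cells, against 2294.3, 1949.9, 2111.6 and 2435 in resting cells (-1.06 ± 0.18, adjusted p = 0.000211). Ndufb8, another complex I subunit, gave 1046.8 and 1266.8 after LPS, against 1822.3, 3003.3, 2254.5 and 2568.7 at rest (-1.01 ± 0.19). The summed signal of the list was 81242.1 and 70391.3 after LPS, below the 98959.3 to 125114.4 of the resting arrays. The count of falls was 14 without LPS replicate 1, 7 without LPS replicate 2 and 4 in the 6-array fit, and the actin 3' to 5' ratio was higher in both LPS arrays while that of Gapdh was not (0.882 and 0.735 after LPS, 0.867 to 0.97 at rest). The part of RNA integrity was not tested. Of 23 cytosolic ribosomal protein genes 2 fell, with 0 to 7 over the settings tried, and of 29 constitutive proteasome genes 1 fell, with 1 to 4. These shares of 8.7% and 3.45% stood beside 8.39% over all genes.

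Glycolytic genes fell in part. The shares called lower were 33.3% for glycolysis and hypoxia, 41.7% for complement, 21.4% for lysosomal and 15.2% for cell cycle genes. Over all genes 8.39% were lower and 9.26% higher. Tpi1, triosephosphate isomerase, gave 2479 and 2579.8 in LPS-treated cells, against 4290.7, 5692.1, 4458.3 and 4336.8 in resting cells (-0.87 ± 0.14, adjusted p = 9.31e-05). Aldoa, aldolase A, gave 6313.8 and 6747 after LPS, against 11744, 16055, 10932 and 11409 at rest (-0.92 ± 0.21). Its change was -0.45 over the mean of its 2 probe sets, of which only the brightest was called. Of 18 genes of glycolysis and hypoxia 6 fell and 3 rose; 4 fell and 1 rose without either LPS array, 2 fell and 0 rose in the 6-array fit, and 1 rose without resting replicate 1. Of 12 complement genes 5 fell and 0 rose, with 2 falls without LPS replicate 1 and 1 in the 6-array fit. Scarb1, a receptor for high-density lipoprotein, fell by 1.46 ± 0.23, with 753.1 and 1072.3 after LPS and 2084.3 to 3231.5 at rest. Of 28 lysosomal genes 6 fell and 0 rose, with 3 falls without LPS replicate 1, 4 without LPS replicate 2 and 1 in the 6-array fit, and 1 rise without resting replicate 4. Of 33 cell cycle genes 5 fell and 0 rose, a count that was 0 without LPS replicate 1, 3 without LPS replicate 2, 7 without resting replicate 1, 9 without resting replicate 3 and 2 without resting replicate 2 or 4 or in the 6-array fit.

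Stress genes rose in part, and survival genes went both ways. Dnaja1, an HSP40 co-chaperone, gave 2164.3 and 2186.3 in LPS-treated cells, against 777.8, 623.9, 996.7 and 740.5 in resting cells (1.43 ± 0.15, adjusted p = 1.73e-07). Hsp90aa1, the inducible HSP90, rose by 1.15 ± 0.21. Of 25 heat shock and chaperone genes 7 rose and 1 fell, with 3 rises without LPS replicate 1 and 2 in the 6-array fit. Nfe2l2, encoding the redox regulator NRF2, gave 6120.8 and 6570 after LPS, against 3345.1, 2544.7, 2515 and 2782.5 at rest (1.18 ± 0.17), and Txnrd1, thioredoxin reductase, rose by 1.15 ± 0.15. Casp4, the caspase that senses LPS inside the cell, gave 994.6 and 1388.2 after LPS and 105.3 to 346.1 at rest (2.08 ± 0.24), and the inhibitor of apoptosis Birc3 rose by 1.21 ± 0.17. Of 23 BCL2 family, caspase and survival genes 3 rose and 3 fell, 13% each way beside 9.26% and 8.39% over all genes. The 6-array fit left 2 rises and 0 falls. Ets2, an ETS-family factor, rose by 1.91 ± 0.21, and 7 of 29 myeloid transcription factor genes rose against 1 that fell, with 1 rise left without LPS replicate 2, 4 without resting replicate 4, where 2 fell, and 2 in the 6-array fit. Slc20a1, a phosphate transporter, gave 3337.6 and 3515.2 after LPS and 276.9 to 372.7 at rest (3.22 ± 0.18).

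**Figure D3:**
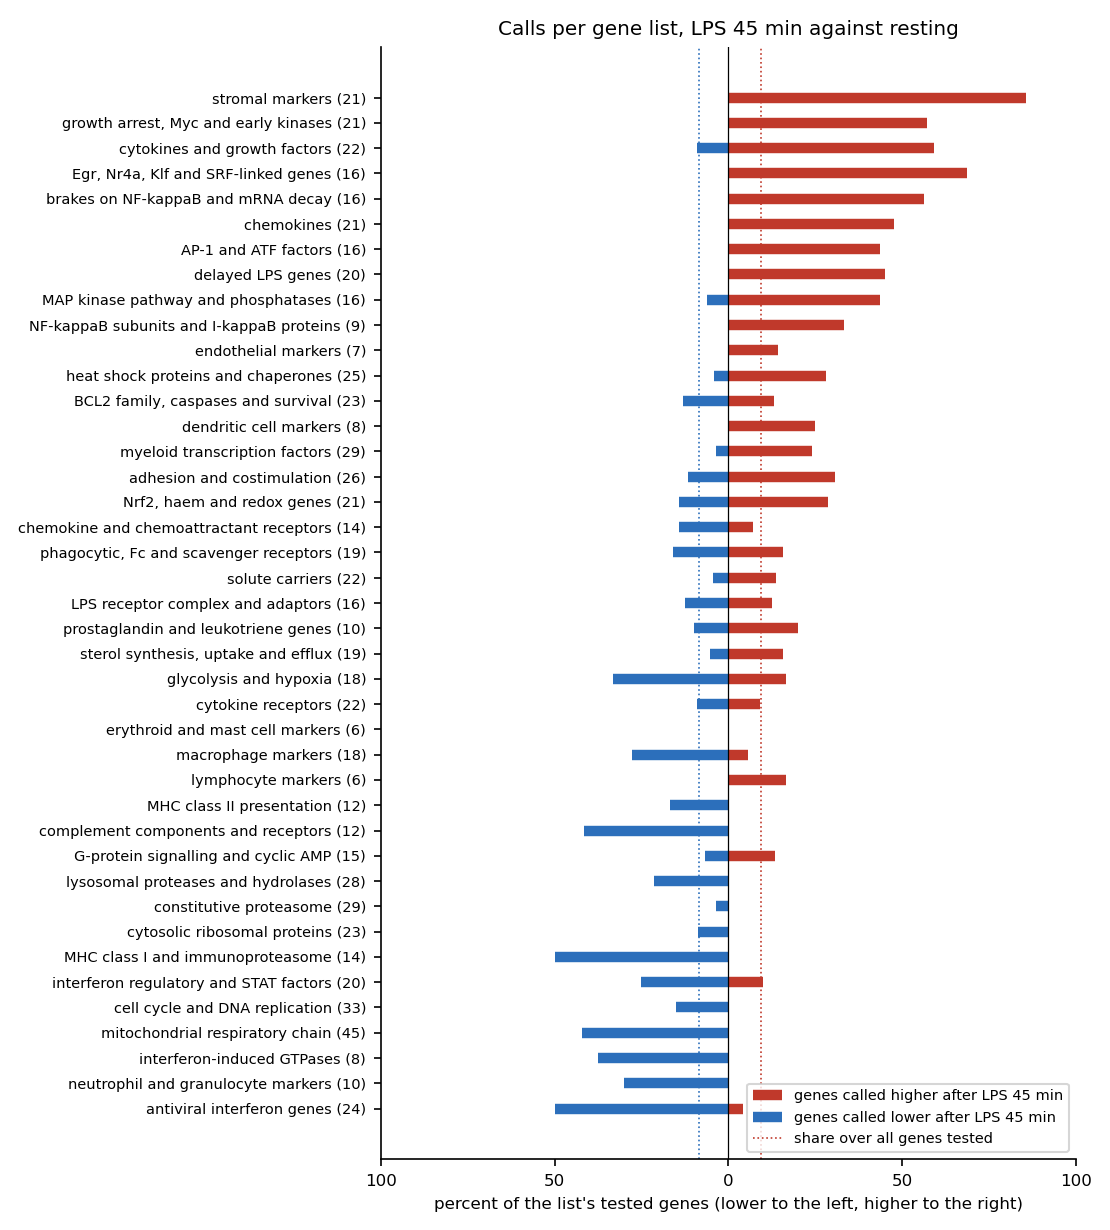
Percent of tested members called higher (right) or lower (left) at 45 min of LPS against rest, for each gene list shown; dotted lines mark the shares over all 6070 genes, 9.26% higher and 8.39% lower. Stromal markers (18 of 21) and Egr, Nr4a, Klf and SRF-linked genes (11 of 16) have high shares to the right, and antiviral interferon genes (12 of 24) to the left.

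Collagen and other stromal genes stood higher in the LPS arrays. Of 21 stromal markers tested, 18 were called higher, 0 lower and 3 neither, with a list median of 1.57. Col1a2, a chain of type I collagen, gave 1770.2 and 3017.5 in LPS-treated cells, against 238, 50, 105.6 and 397.6 in resting cells (3.48 ± 0.34, adjusted p = 6.05e-08; 1.95 over the mean of its 2 probe sets). Timp3, a matrix-bound inhibitor of metalloproteases, gave 2082.1 and 1977.5 after LPS, against 112.6, 44.7, 51.9 and 272.8 at rest (3.79 ± 0.30). Lox, which cross-links collagen, gave 1236.3 and 998.2 after LPS, against 51.7, 23.1, 6.1 and 166.5 at rest (3.57 ± 0.36). Fn1, fibronectin, rose by 2.78 ± 0.23 and Cxcl12 by 2.73 ± 0.31 (1.87 over its 3 probe sets). The count was 15 without LPS replicate 1, 14 without LPS replicate 2, 20 without resting replicate 4 and 10 in the 6-array fit. Against the 45 min arrays, the 180 min arrays had 1 stromal marker higher and 0 lower, with a list median of -0.04. In bulk RNA, more cells of a type and more RNA per cell cannot be told apart, and the growth factor source named in the labels differed between the same groups.

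Markers of other cell types moved less. Of 10 neutrophil and granulocyte markers 0 rose and 3 fell, of 6 lymphocyte markers 1 rose (Cd4), of 7 endothelial markers 1 rose (Sele), and of 6 erythroid and mast cell markers 0 were called either way. Over all genes 9.26% rose and 8.39% fell. The rise of Cd4 was lost without LPS replicate 2 (adjusted p = 0.056) and in the 6-array fit (0.111), and that of Sele likewise (0.0579 and 0.162), while 2 endothelial markers rose without resting replicate 4. The neutrophil falls numbered 1 without either LPS array and 0 in the 6-array fit. Of 8 dendritic cell markers 2 rose; these were Cd83, described above, and Xcr1 (1.23 ± 0.33), whose call was lost without LPS replicate 1 or LPS replicate 2 and in the 6-array fit (adjusted p up to 0.158). The summed signal of the 8 was 14654.7 and 13328.3 after LPS and 3188.5 to 4444 at rest, of which Cd83 made up the greater part after LPS. Of 18 macrophage markers 1 rose, Cd14, and 5 fell; 3 fell without either LPS array, 3 rose without resting replicate 1, and 0 were called either way in the 6-array fit. The falls included the 3 genes of complement C1q. C1qb gave 20326 and 17032 in LPS-treated cells, against 37046, 33952, 32453 and 32134 in resting cells. Its change was -0.86 ± 0.14 (adjusted p = 8.08e-05), or -0.54 over the mean of its 2 probe sets, and the 6-array fit did not call it (0.0614). C1qa and C1qc lost their calls in that fit (adjusted p = 0.0715 and 0.0546) and without LPS replicate 1 (0.0519 and 0.0532).

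**Figure D4:**
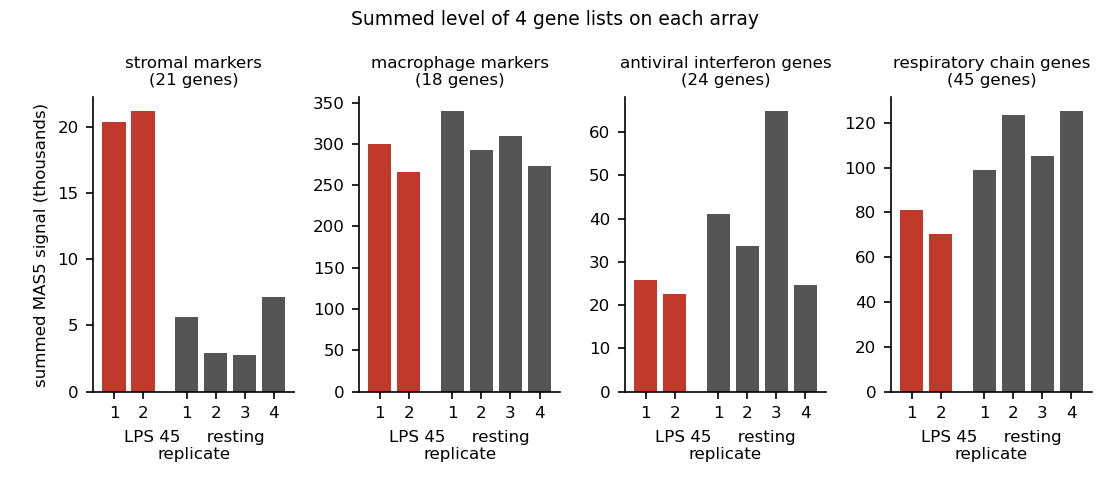
Summed signal of 4 gene lists in each array, LPS 45 min to the left of resting. Stromal markers are higher in both LPS arrays than in all 4 resting arrays, respiratory chain genes are lower in both, and macrophage markers and antiviral interferon genes overlap between the groups.

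The 180 min arrays gave the level of each early change later on. They were compared with the 45 min arrays, which also enter the comparison above, so the 2 sets of calls are given side by side only. Of 6070 genes, 436 (7.18%) were higher at 180 min than at 45 min and 488 (8.04%) lower, with a median over all genes of -0.15. Of the 562 genes called higher at 45 min, 91 were higher again, 74 lower and 397 had no call; of the 509 called lower, 60 were higher, 65 lower and 384 had no call. By probe set 1143 were called, 728 without LPS 45 min replicate 1.

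Many of the transcription factor genes were lower again at 180 min. Fos gave 793.4 to 1843.5 at rest, 21779 and 23697 at 45 min, and 300 and 406.4 at 180 min. The change between the LPS times was -5.83 ± 0.25 (adjusted p = 3.02e-14), and both 180 min arrays lay below all resting arrays. Sgk1 behaved alike, with 1068.2 to 1258.4 at rest, 10288 and 10643 at 45 min, and 410 and 537.7 at 180 min (-4.34 ± 0.18). Egr1 gave 207.5 and 430.8 at 180 min (-4.05 ± 0.33) and Nr4a1 218.2 and 261.4 (-3.93 ± 0.27), both within or near their resting ranges. Of 16 Egr, Nr4a, Klf and SRF-linked genes 8 were lower and 2 higher at 180 than at 45 min, and of 16 AP-1 and ATF genes 6 were lower and 1 higher. Cxcr4, uncalled at 45 min, gave 37.5 and 43.1 at 180 min (-5.20 ± 0.32).

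Several leading mediators had no call between the LPS times. Cxcl2 gave 14493 and 16431 at 180 min (-0.26 ± 0.33, adjusted p = 0.696), Tnf 15153 and 17418 (-0.47 ± 0.39, adjusted p = 0.502) and Ccl2 14787 and 18239 (-0.13 ± 0.21, adjusted p = 0.774), none of which passed. Nfkbia gave 25038 and 27543 (0.14 ± 0.29, adjusted p = 0.823). Of the 20 largest rises at 45 min, 5 were higher, 5 lower and 10 without a call at 180 min. Il1a was among the higher, with 15264 and 11048 at 180 min (2.13 ± 0.28), as was Ptgs2 with 9560.9 and 10112 (2.04 ± 0.21).

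Delayed LPS genes and interferon genes were among those higher at 180 than at 45 min. Acod1, which makes itaconate, gave 213 to 498.8 at rest, 1494.8 and 1637.3 at 45 min, and 31971 and 32223 at 180 min (4.32 ± 0.27, adjusted p = 2.19e-11). Mmp13, collagenase 3, gave 61.6 to 206 at rest, 870.6 and 709.2 at 45 min, and 18091 and 16364 at 180 min (4.37 ± 0.30). Serpinb2, a plasminogen activator inhibitor, gave 30.1 to 118.6 at rest, 1063.9 and 949.3 at 45 min, and 6423.4 and 4972.8 at 180 min. Acod1, Mmp13 and Serpinb2 were already called at 45 min, by 2.13 ± 0.23, 2.24 ± 0.26 and 3.0 ± 0.27. Of 20 delayed LPS genes 9 rose by 45 min (3 in the 6-array fit) and 0 fell (1 without resting replicate 4), with a list median of 0.64. At 180 min 18 were higher than at 45 min, with a list median of 2.82. This list was named for late induction and chosen with earlier results of these data known, so the 18 are not an independent result. Of 24 antiviral interferon genes 15 were higher at 180 than at 45 min and 1 lower. Ifit1 gave 4119.9 and 3096.9 at 180 min (4.12 ± 0.56) and Irgm1 gave 1247.6 and 816.8 (2.43 ± 0.34), in both cases above every resting array after lying below every resting array at 45 min. Of 18 glycolysis and hypoxia genes 9 were higher at 180 than at 45 min and 0 lower, with Tpi1 at 5095.1 and 5240.5 (1.02 ± 0.16). In contrast, 0 of 45 respiratory chain genes were higher and 1 was lower.

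**Figure D5:**
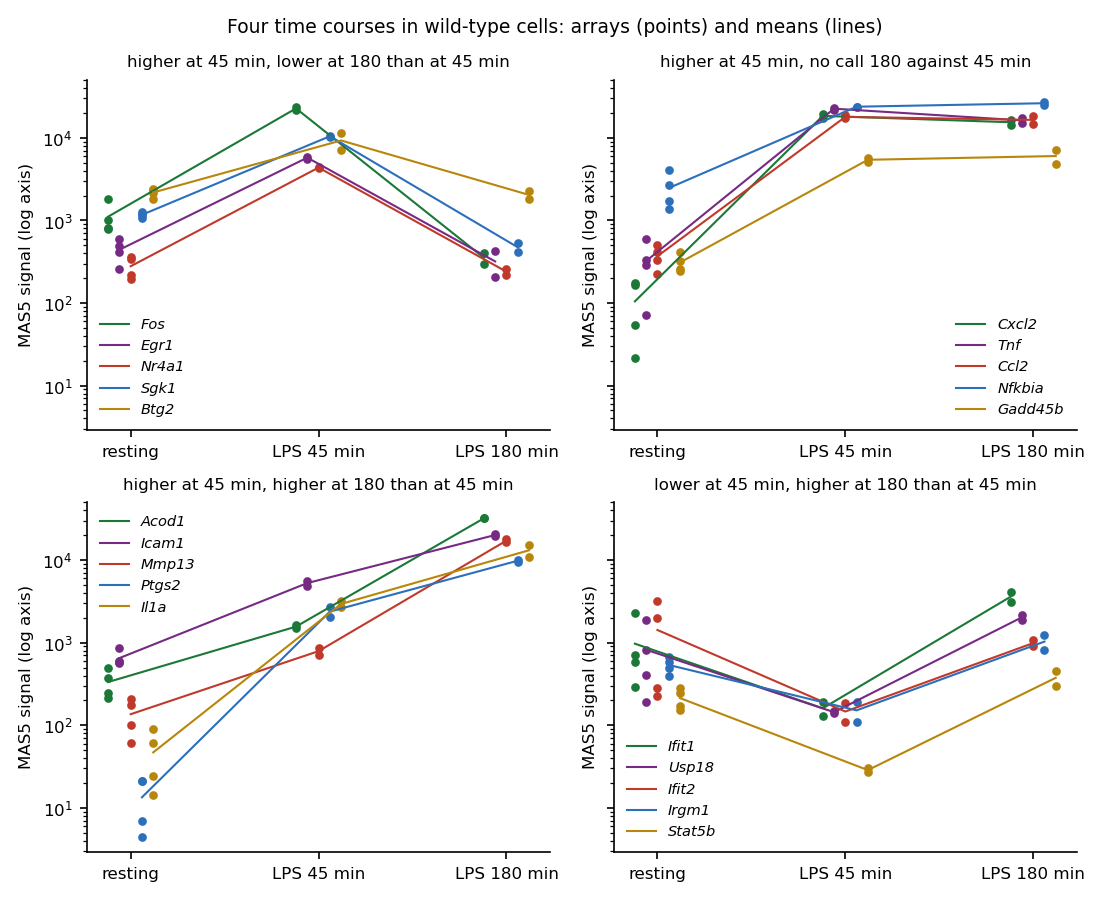
Mean signal (log axis) at rest, 45 min and 180 min of LPS for 20 named genes in 4 panels, with each array as a point. The panel with Fos, Egr1, Nr4a1 and Sgk1 peaks at 45 min, that with Cxcl2, Tnf and Nfkbia stays high, that with Acod1 and Mmp13 climbs to 180 min, and that with Ifit1, Usp18 and Irgm1 dips at 45 min.

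The series holds 15 more grouped arrays at 45 min of LPS, from IL-10-/- or IL-6-/- cells or with IL-10 or IL-6 added, read against the same 4 resting arrays. Cxcl2 ran from 10969 to 21838 in these arrays (median 17895), Tnf from 6410.2 to 31563 (20154) and Fos from 11432 to 18142 (15590). For each of the 20 largest rises all 15 arrays lay above every resting array. For 11 of the 20 largest falls all 15 lay below. Those genes were chosen for lying apart from the same 4 resting arrays, so part of this agreement comes with the choice. The same shares over all genes are not given here. Ccr2 ran from 274 to 1118.4 in them (median 406.3), Txnip from 398 to 1259.4 (620.4) and Ly86 from 912.8 to 3273.8 (1665.4), while Ifit2 ran from 54.5 to 338.9 (194) with 11 of 15 arrays below every resting array. Col1a2 ran from 1424.5 to 3841.6 (median 2444.1), above every resting array in all 15.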

How the data were processed

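RNA from mouse bone-marrow-derived macrophages was hybridised to 34 Affymetrix MG-U74Av2 arrays, of which 32 could be placed in 16 groups by their titles and 2 could not. The authors deposited linear intensity values per probe set, made with MAS5 per the submitters' processing notes; its version was not given in the sources used here. On each array the mean intensity with 2% of the values trimmed from each end lay between 500.288 and 500.399, which shows a common scaling, and signals ran from 0.2 to 86349.8. The number of arrays limits the precision.

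After 66 control probe sets were left out, 8224 of 12488 probe sets with a signal of 200 or more in at least 2 arrays were tested. log2(signal + 50) was fitted with limma 3.58.1 in R 4.3.3, with the 16 groups as one factor, an intensity trend, 16 residual degrees of freedom and Benjamini-Hochberg adjustment at 0.05. Symbols came from the platform annotation, in which 10855 probe sets had 1 symbol and 396 several, with 1237 not named; 10839 were matched to RefSeq. A gene was given by its brightest probe set. The fit was tested on simulated data.

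Named genes were the 20 largest called rises and falls with no overlap between the groups, up to 6 called members of each list, and a set of fixed genes. The members, the lists and this rule were chosen with earlier results of these data known. A permutation of 2 arrays against 4 cannot go below an exact p of 0.133 when the p of 1 side is doubled, so no single gene was tested that way. The alternatives were quantile normalization, added constants of 10 and 200, other filters, no trend, a replicate block, a fit of the compared groups alone, averaging a gene's probe sets, and leaving out each array. Results on 1 gene list are not reported here.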

Additional observations from a re-analysis of the deposited data

Results flagged for a closer look

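In 9 of the 202 named genes, 1 of the 4 resting arrays lay apart from the others by Dixon's test at the 95% level; chance flags about 1 in 20. Resting replicate 4 was the array in 5 of them, with Ctsl (a lysosomal protease) at 9061.3, Fli1 (an ETS factor) at 1928.1, Hspd1 (a mitochondrial chaperone) at 436.2, Icam1 at 865.6 and Il6 at 223.8. Resting replicate 3 was the array for Ier3 (1263.4) and Tank (331.0), resting replicate 1 for Cat, encoding catalase (377.4), and resting replicate 2 for Tpi1 (5692.1).

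For 9 named genes the change at 45 min and the level at 180 min ran in opposite directions from rest, and the difference between the LPS times was tested by limma. Fos (-5.832) and Sgk1 (-4.3377) stood above every resting array at 45 min and below every one at 180 min. Ifit1 (4.1195), Usp18 (3.4201), Irgm1 (2.4254), Stat5b (2.4125), Ptpn1 (2.2741), Ptger2 (2.2655) and Ldha (1.0001) stood below at 45 min and above at 180 min. In the 6-array limma fit the 45 min call was lost for Ptger2 (adjusted p = 0.252), Usp18 (0.171), Ifit1 (0.105), Ptpn1 (0.105) and Ldha (0.0887). Ptger2 also lost it with 200 added, with the replicate block and without resting replicate 2 or 4. Such genes were looked for among the named genes only, so no share over all genes is given. Ptpn1 is a tyrosine phosphatase, Ptger2 a prostaglandin E2 receptor and Ldha lactate dehydrogenase.

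Of the 2 arrays placed in no group, 1 had no genotype in its title and the other had a title and a protocol that differ on the time. The array with no genotype gave 18920.1 for Cxcl2, 16726.6 for Fos and 10690.0 for Socs3, each above all 4 resting arrays. The array whose time is unsettled gave 19237.8 for Cxcl2 and 20770.5 for Socs3, also above all resting arrays, with Fos at 205.1 and Acod1 at 40235.9.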

How the results depend on the processing

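Between 45 min of LPS and rest, 1377 probe sets were called, 740 higher and 637 lower. A fit of only these groups called 329. Leaving out 1 array at a time gave 695 to 1482, with the low counts from leaving out an LPS array, which leaves 1 array whose spread is taken to be that of the other groups. Between 180 and 45 min, 1143 were called, and leaving out 1 array gave 728 to 806. With the replicate number as a block the counts were 1639 and 1680, with 8 named calls at 45 min lost; nothing in the labels pairs the numbers, and same-numbered differences correlated at 0.06 between LPS 45 min and resting arrays and at 0.19 between 180 and 45 min. The other settings gave 1264 to 1482 at 45 min, and 774 (only the groups compared) to 1168 between 180 and 45 min.

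Of 196 named genes called at 45 min, 100 kept the call in every setting and 96 lost it in at least 1. The fit of only the compared groups lost 88, leaving out LPS replicate 1 lost 53 and LPS replicate 2 lost 50. Leaving out a resting array lost 6 to 15. No named gene called at 45 min changed direction under these settings. Among named genes called between 180 and 45 min, Csf1r alone did, at 0.0495 over the mean of its probe sets, and the cause was not tested. Changes of direction in genes with no call were not counted.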
